A study of Mus musculus with 3 samples.

Results

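GATA4 peaks in 3′ untranslated regions (3′ UTRs) numbered 809 of the 50869 peaks that the authors called in adult mouse stomach mucosa, or 1.59% (95% Clopper-Pearson interval 1.48 to 1.70). They were taken as every peak whose HOMER annotation starts with 3′ UTR, joined by peak name to the table of peak heights. HOMER names the transcript whose UTR holds the peak, and 718 genes were found to hold at least 1; they are called host genes below. All 718 were protein-coding. A single peak lay in 639 of them, 2 peaks lay in 68, and 3 or more lay in 11. The 809 peaks covered 221 kb.

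The study mapped GATA4 on chromatin by pull-down and sequencing. All libraries came from mice of strain G4fb/fb R26 Bira/Bira, aged 10 to 12 months. These mice carry a FlagBio GATA4, and BirA, placed by the strain name at R26, a locus active in most tissues, is a bacterial ligase that attaches biotin to such a tag, so that GATA4 with its DNA can be held on streptavidin beads. There were 2 pull-down libraries and 1 input library, which was not pulled down and has the same code in its title as the first pull-down replicate. The labels do not say whether the 2 pull-down codes are separate animals, and no library from mice without the tagged GATA4 was analysed here. Whole mucosa holds several cell types, which a peak list cannot separate, and with no expression measured the tissue could not be checked against marker transcripts.

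The authors pooled both pull-downs into 1 peak call of 38770530 filtered tags against 23023152 input tags. Each value below is therefore 1 pooled value, with no replicate error and no test between samples. Intervals on counts and shares cover counting error only. Fold is the authors' ratio, at the summit, of the pull-down pileup over the local input, with 1 added to both sides. For this ratio the pull-down pileup is scaled down to the input depth, whereas the pull-down tag counts given below are unscaled. Fold is used here to describe and rank peaks within this list. Coordinates are those of mouse build mm9, counted from 1.

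GATA4 is a zinc-finger transcription factor that binds DNA at GATA motifs and is known for its part in endoderm and in the epithelium of the glandular stomach. The 3′ UTR is the end of a messenger RNA after its stop codon, known as the place where microRNAs and RNA-binding proteins act on the message. A peak called from chromatin lies on the DNA that encodes this end of the gene, not on the RNA. Where genes are packed closely, such DNA can also lie just before or after the start of the next gene.

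The 3′ UTR peaks were low in the range of the list. Their median fold was 4.12, with quartiles of 3.72 and 4.52, a minimum of 2.40 and a maximum of 8.50. All other peaks had a median of 4.41 and reached 32.6. Only 92 of the 809, or 11.4% (9.27 to 13.8), stood at 5-fold or more, against 30.3% of all peaks. None reached 10-fold, which allows a share of up to 0.371% by the limit of 3 counts, whereas 527 peaks of the whole list did (1.04%). Among the top 10% of all peaks by q-value were 7 of the 809, or 0.865% (0.349 to 1.77), against 10% of the list by construction.

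Other classes along the transcript held more high peaks. Peaks in later exons, which are coding or other exons after the first, had the same median of 4.12 but reached 21.1, and 15.8% of them (14.7 to 16.9) stood at 5-fold or more. Peaks at transcription end sites, around the ends of transcripts where 3′ UTRs also end, had a median of 4.32 and reached 22.7. They stood at 5-fold or more in 24.8% (22.2 to 27.4). Peaks in 5′ UTRs, at the other end of the message, had a median of 5.59, and 62.9% were at 5-fold or more. The intervals of these shares do not overlap that of the 3′ UTR peaks, which is not a test, since peaks are not replicates. Distance to a transcription start is not matched here, and 96.3% of 5′ UTR peaks lay within 1 kb of one. The top 10% by q-value held 2.08% of later exon peaks, 6.44% of end site peaks and 30.3% of 5′ UTR peaks.

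**Figure D1:**
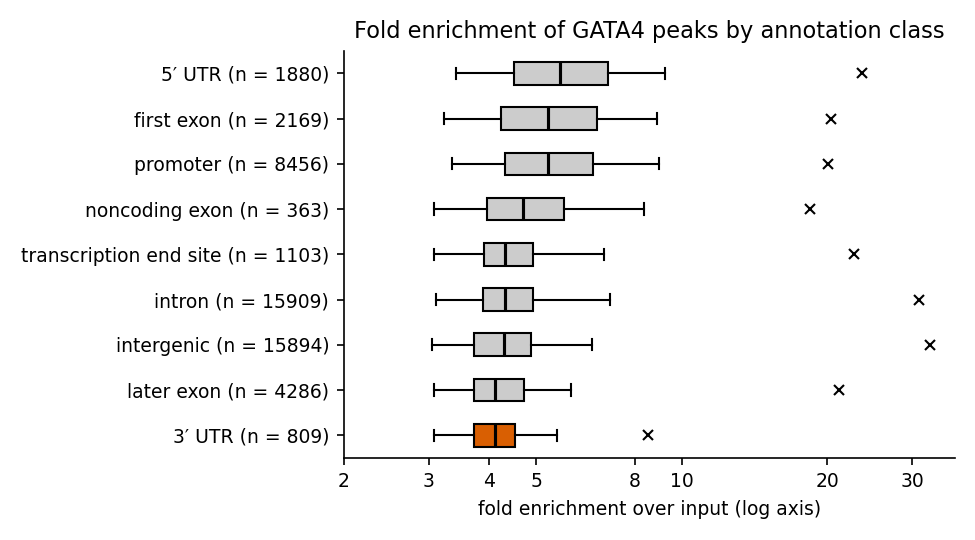
Fold enrichment over input (log axis) of GATA4 peaks in each annotation class, with the class size beside its name. Boxes span the quartiles with the median as a line, whiskers run from the 5th to the 95th percentile, and the cross is the highest peak of the class. The 3′ UTR class, in orange, has a median of 4.12 and the lowest maximum of the classes shown, 8.50.

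The tag numbers behind these folds were small. At the summit a 3′ UTR peak held a median of 20 pull-down tags, with quartiles of 18 and 22, against 22 over the whole list. Most, 488 peaks or 60.3%, had 18 to 22 tags, and 137 (16.9%) had 14 to 17. Only 37 (4.57%) had 29 or more, against 22.5% of all peaks. A count of 20 tags has a 95% Poisson interval of 12.2 to 30.9 and a count of 29 has one of 19.4 to 41.6, so the order of single peaks is loose over most of the range. The median −log10 q-value was 3.24, from 1.43 to 14.3, against 3.98 over the list. Later exon peaks had the same medians, 20 tags and 3.24. Intron and intergenic peaks had medians of 21 tags and 3.24, and end site peaks of 21 tags and 3.86.

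The input under these peaks was mostly at its floor. For 451 of them (55.7%) the local input stood at the caller's genome-wide floor of 1.98 tags, and for 190 (23.5%) at 2 tags. The other 168 of the 3′ UTR peaks (20.8%) had another value, against 29.6% of all other peaks, 22.4% of later exon peaks and 24.6% of end site peaks. The peaks were also short, with a median length of 221 bp against 268 bp over the list. Those under 200 bp made up 37.5% and had a median fold of 3.96. Those of 400 bp or more made up 14.3% and had a median of 4.52, below the 4.89 of later exon peaks and the 5.51 of end site peaks of that length. The summit lay a median of 34 bp from the middle of the peak, and more than 100 bp away in 11.7%.

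Few 3′ UTR peaks lay near a transcription start site (TSS). HOMER measures the distance from the middle of the peak to the nearest start of any gene. It was 1 kb or less for 7 peaks (0.865%), against 31.7% of all peaks. HOMER gives a peak close to a start to its promoter class first, so this share is partly set by the annotation. The distance was 1 to 10 kb for 447 (55.3%) and over 10 kb for 355 (43.9%), with a median of 8.72 kb.

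In order of distance the 7 nearest were Tmem253, at 0.347 kb from the start of its neighbour Zfp219, then Kcne1l (0.647 kb), the immediate early gene Ier2 (0.82 kb), the neural factor gene Bhlhe23 (0.861 kb), Nrarp and Olig3 (both 0.958 kb) and Cited4 (0.959 kb). Their folds ran from 2.92 at Tmem253 to 6.71 at Ier2. At the other end, the peak of Tbc1d22a, a gene of the Rab GTPase-activating family, lay 283.5 kb from its own start at 3.50-fold. The peak of Grik3, a glutamate receptor subunit gene, lay 203.4 kb from the nearest start, that of Mir692-2, at 4.89-fold. That of Med13l, a Mediator subunit gene, lay 189.4 kb away at 4.92-fold.

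The 3′ UTR peaks were also set beside later exon and end site peaks at matched distance from a TSS. From 1 to 10 kb the median fold was 4.12 (95% order-statistic interval 4.12 to 4.29) for 3′ UTR peaks, 4.12 for later exons and 4.32 for end sites. In the same range 13.0% of 3′ UTR peaks (10.0 to 16.4), 16.3% of later exon peaks (14.8 to 17.9) and 19.4% of end site peaks (16.2 to 22.9) were at 5-fold or more. From 10 to 100 kb all 3 classes had a median of 4.12, and the shares at 5-fold or more were 8.53% (5.79 to 12.0), 11.9% (10.4 to 13.6) and 10.1% (6.66 to 14.6). In both ranges the interval of the 3′ UTR peaks overlapped those of the other 2 classes. Intergenic peaks in that range had a median of 4.29 and a share of 21.1%. Beyond 100 kb there were only 15 3′ UTR peaks, with a median of 4.49 (4.12 to 4.89), beside 3.94 (3.90 to 4.32) for 66 later exon peaks and 3.81 (3.52 to 4.32) for 7 end site peaks.

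**Figure D2:**
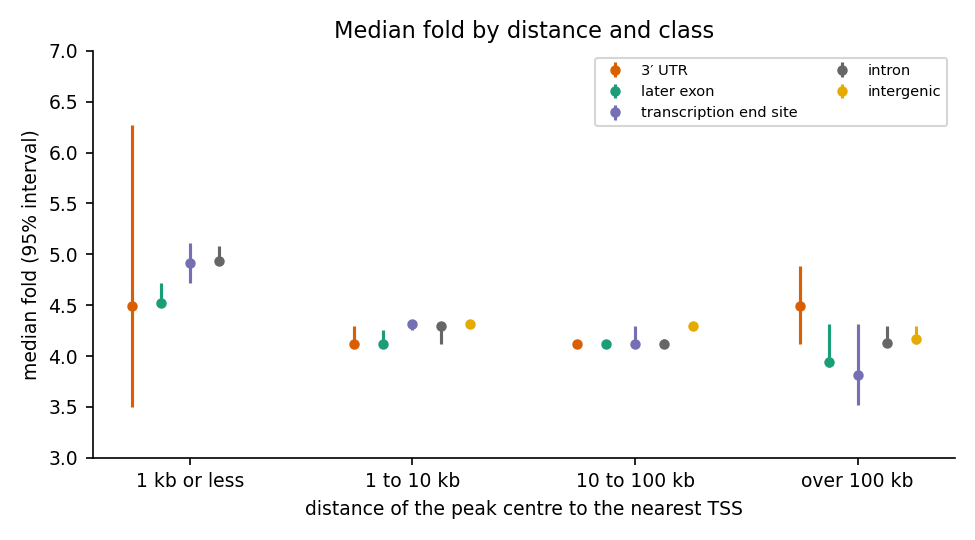
Median fold with its 95% order-statistic interval (vertical axis) for annotation classes in 4 ranges of distance from the nearest TSS (horizontal axis). The 3′ UTR medians are 4.49, 4.12, 4.12 and 4.49 from the nearest range to the farthest, with 7 and 15 peaks in the outer ranges.

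The gene that HOMER credited with the peak was usually not the gene whose UTR held it. The nearest start belonged to the host gene for 321 of the 809 peaks, or 39.7% (36.3 to 43.1), and to another gene for 488 (60.3%). Of these 488, 298 (61.1%) lay upstream of the credited start and 190 (38.9%) downstream of it. The credited gene was protein-coding for 406, a microRNA for 44 and a long noncoding RNA for 34. For 395 of the 406 (97.3%) the host and the credited gene stood next to each other in the gene table. Peaks credited to their host and peaks credited to another gene had the same median fold of 4.12, at median distances of 9.11 and 8.23 kb.

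Examples show how a name taken from the nearest start can differ from that of the host. The distances given run from the middle of the peak to the credited start. The Furin peak was credited to Fes, a tyrosine kinase gene, at 1.99 kb, and the Thra peak to Nr1d1, a circadian repressor gene, at 6.81 kb. A peak in the UTR of Spi1, which encodes the myeloid factor PU.1, was credited to Mybpc3, a cardiac myosin-binding gene, at 2.68 kb. The Muc5ac peak was credited to Muc5b, the next mucin gene, at 20.1 kb. Among microRNAs, 2 peaks in Vps37b and 1 in the neighbouring Hip1r were credited to Mir7032, and both Ctdsp1 peaks to Mir26b, at 1.38 and 2.46 kb.

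Most host genes also had GATA4 peaks at their start. Another peak within 1 kb of the host's TSS was found for 616 of 718 host genes, or 85.8% (83.0 to 88.3). The share was 56.4% (55.7 to 57.1) of the 20309 other protein-coding genes, 75.9% (74.4 to 77.5) of the genes hosting later exon peaks and 77.2% (74.3 to 79.9) of those hosting end site peaks. Only 27 host genes (3.76%) had no other peak. A peak counts here where HOMER credited it to the gene or placed it in its transcript, so a start peak credited to a divergent neighbour is missed.

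The start peak was usually the higher one. Among the 616 genes the strongest start peak was higher than the strongest 3′ UTR peak in 535 (86.9%), lower in 78 (12.7%) and equal in 3. The medians were 6.11-fold at the start and 4.12-fold in the UTR, and the median ratio of start to UTR was 1.46, with quartiles of 1.18 and 1.86. In 76 host genes, or 10.6% (8.43 to 13.1), the strongest peak of the whole gene was the one in the UTR. That share was 25.1% for genes with later exon peaks and 24.6% for genes with end site peaks. With only the peaks at a −log10 q-value of 5 or more it was 27.8% (19.2 to 37.9) of 97 host genes, and 52.2% and 57.8% in the other 2 classes, for which this limit was applied after seeing the data. Without the genes that had no other peak it was 49 of 691 (7.09%). The 102 host genes without a start peak had a median UTR fold of 4.28.

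**Figure D3:**
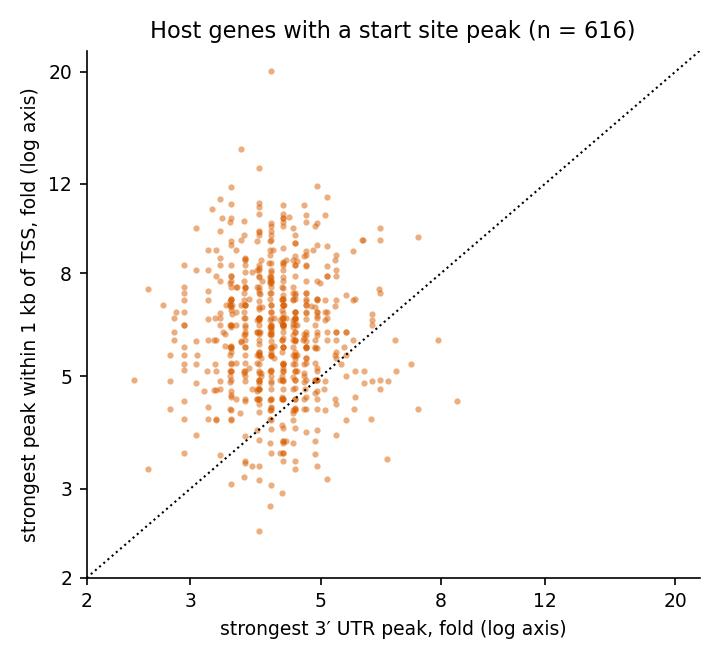
Fold of the strongest 3′ UTR peak (horizontal, log axis) against fold of the strongest peak within 1 kb of the TSS (vertical, log axis) for the 616 host genes with both; each point is a gene and the line marks equal fold. Most points, 535, lie above the line.

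The 3′ UTR peaks lay close to other peaks. The nearest other peak was a median of 1.43 kb away, against 3.53 kb over the list, 1.72 kb for later exon peaks and 1.18 kb for end site peaks. It was within 5 kb for 618 (76.4%), against 55.1% of the whole list, and within 1 kb for 343 (42.4%). The share within 1 kb was 34.2% over the list, 39.1% for later exon peaks and 46.6% for end site peaks. Of the 618 near neighbours, 151 (24.4%) were 3′ UTR peaks themselves, a class that makes up 1.59% of all peaks. Another 142 (23%) were in later exons, 118 (19.1%) in introns, 98 (15.9%) at end sites and 43 (6.96%) in promoters. Those classes made up 8.43%, 31.3%, 2.17% and 16.6% of all peaks, in that order. Neighbours within 5 kb of a 3′ UTR are limited by position to the surroundings of a gene end. The class shares over all peaks are therefore not a like-for-like baseline. For 137 peaks (16.9%) another peak in the UTR of the same gene lay within 1 kb. For 71 (8.78%) some other peak lay within 1 fragment length of 161 bp, so these may share tags. Chromosome 11 held the most, 103 peaks or 12.7%, against 8.39% of all other peaks, 11.5% of later exon peaks and 11.2% of end site peaks. Chromosome 15 held 69 (8.53%), against 4.53% of other peaks.

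The highest 3′ UTR peak lay in Slc25a10, which encodes the mitochondrial dicarboxylate carrier. It spanned 352 bp on chromosome 11, from 120361656 to 120362007, in the last of 11 exons. It held 41 tags (Poisson interval 29.4 to 55.6) and was 8.50-fold over input, with a −log10 q-value of 14.3. It lay 8.68 kb from the gene's own start, where the strongest peak was 4.48-fold. It was the only 3′ UTR peak at 8-fold or more, and it was also the strongest peak of its gene. In the whole list it ranked 1517 by fold.

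The next in order lay in genes of differing roles. Rassf4, a Ras-association domain gene, had 38 tags and 7.90-fold on chromosome 6 from 116585254 to 116585623, above its start peak of 5.91. Knop1, a gene for a nucleolar protein, had 37 tags and 7.70-fold on chromosome 7 from 125988743 to 125988948; its best other peak was 4.92-fold. Both peaks were the highest of their gene. Dhrsx, a short-chain dehydrogenase gene on an unplaced contig of chromosome 4, had 35 tags and 7.30-fold, below its start peak of 9.43. Pheta1, an endocytic adaptor gene, had the longest of all 3′ UTR peaks, 1819 bp on chromosome 5 from 122302621 to 122304439. It held 35 tags at 7.30-fold, against 4.32 at the gene's start.

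The 25 highest, all in different genes, ran from 6.11-fold to 8.50-fold and from 29 to 41 tags. The tag intervals of the other 24 all overlapped that of Slc25a10, so their order is not resolved by counting. All 25 had an input at the floor (19 peaks) or at 2 tags (6 peaks). The UTR peak was the strongest of the gene in 13 of the 25, and 8 of the 19 hosts with a start peak had a higher one there. Choosing the 25 by UTR fold favours the UTR peak in both counts by construction. The host was credited in 10 of the 25, and 7 lay on chromosome 11.

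**Figure D4:**
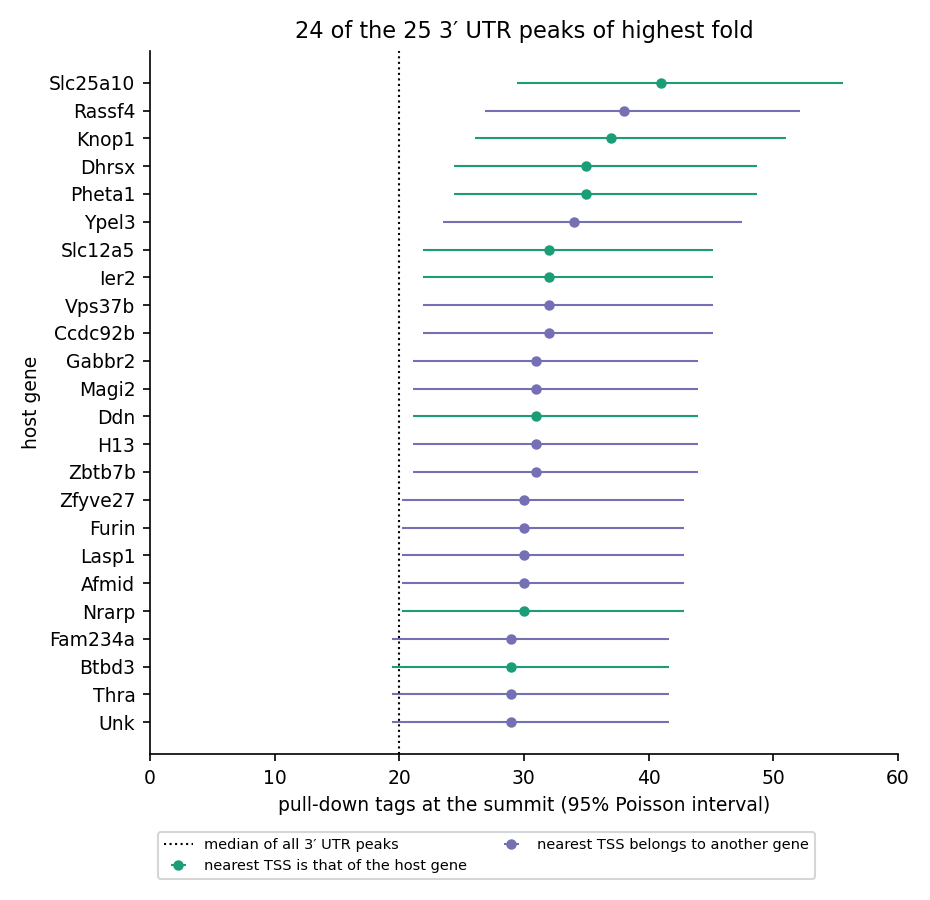
Pull-down tags at the summit with 95% Poisson intervals (horizontal axis) for 24 of the 25 3′ UTR peaks of highest fold, named by host gene from the highest down. Green marks peaks whose nearest TSS is that of the host and purple those nearest to another gene; the dotted line is the median of all 3′ UTR peaks, 20 tags, and 4 of the intervals reach below it.

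Slc12a5, a potassium-chloride cotransporter gene known from neurons, had a peak of 6.71-fold on chromosome 2 from 164822919 to 164823480, above its start peak of 5.11. Gabbr2, a GABA receptor subunit gene, had 6.51-fold against 4.89 at the start. In both genes the UTR peak was the highest. Furin, the protease that cleaves many secreted precursors, had 6.31-fold on chromosome 7 from 87534578 to 87535072, below its start peak of 9.30. Lasp1, an actin-binding gene, had 6.31-fold against 9.83 at the start.

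Zbtb7b, a zinc-finger repressor gene known from T cell fate, had 6.47-fold on chromosome 3 from 89181924 to 89182801, equal to its best other peak. Thra, the thyroid hormone receptor alpha gene, had 6.11-fold on chromosome 11 from 98629726 to 98630028, against 6.47 at its start and 12.5 at its best other peak. Nrarp, an ankyrin repeat gene induced by Notch, had 6.27-fold on chromosome 2 from 25036979 to 25037493, against 7.43 at its start. Unk, which encodes an RNA-binding zinc-finger protein, had 6.11-fold on chromosome 11 from 115921937 to 115922248, above the 4.89 of its start peak.

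The remaining genes of the 25 ranged widely in the balance of their UTR and other peaks. Ypel3 (7.11-fold against 5.30 at the start), the ESCRT subunit gene Vps37b (6.67 against 5.91) and the signal peptide peptidase gene H13 (6.47 against 3.43) were higher in the UTR. Zfyve27 (6.31 against 7.30), Btbd3 (6.11 against 6.63) and Fam234a (6.11 against 6.31) were higher at the start. Afmid, a kynurenine pathway enzyme gene, had 6.31-fold in the UTR, 4.72 at the start and 7.11 at its best other peak. The junction scaffold gene Magi2 (6.51-fold against a best other peak of 6.71), Ccdc92b (6.67 against 4.83) and the dendrin gene Ddn (6.47 against 5.11) had no start peak. Ier2 had a UTR peak of 6.71-fold and 1803 bp on chromosome 8 from 87185030 to 87186832, the only one whose interval reached the nearest TSS, and its best other peak was 9.30-fold.

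Of 76 genes known from the stomach's pit, neck and antral gland, chief, parietal and endocrine cells, 4 (5.26%, 1.45 to 12.9) hosted a 3′ UTR peak, against 3.41% of 21027 protein-coding genes. With the lists of epithelial, signalling, immune, muscle, housekeeping and RNA regulator genes added there were 17 hosts of 271 (6.27%, 3.70 to 9.85), at 2.54 to 5.51-fold. Of 15 pit mucous cell genes 1 did: Muc5ac, the main secreted mucin of surface cells, with 21 tags and 4.52-fold on chromosome 7 from 149004814 to 149004974, in the last of its 50 exons. Its best other peak was 12.6-fold. Of 11 neck and antral gland genes 2 did: the water channel gene Aqp5 (4.52-fold, chromosome 15 from 99424677 to 99424992, start peak 6.51) and the mucin glycosyltransferase gene Galnt6 (4.72-fold, chromosome 15 from 100523553 to 100523848).

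Of 20 parietal cell genes only Atp4b, the beta subunit of the acid pump, had one, at 3.37-fold with 21 tags on chromosome 8 from 13386470 to 13386636, below its start peak of 4.89. None of 12 chief cell genes and none of 18 gastric endocrine genes did; the limits of 3 counts allow up to 25% and 16.7%, so these lists are too short to read an absence from. Of 25 epithelial structure genes only the plakoglobin gene Jup had one, at 4.52-fold against 8.65 at its start.

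Regulators of foregut and epithelium gave 3 hosts of 37. Barx1, a homeobox gene known from stomach mesenchyme, had a peak of 24 tags on chromosome 13 from 48761349 to 48761665. Its pileup scaled to the input depth was 14.25, over an input of 5, which gives 2.54-fold. The start peak of Barx1 was 3.29-fold and its best other peak 6.51. Casz1 reached 5.51-fold, and Sox21 had 3.59-fold against 8.90 at its start. Of 38 genes on the list of developmental signals (Wnt, Notch, hedgehog and BMP) 3 had one: the Notch ligand genes Dll1 and Dll4, both at 4.49-fold, and the Wnt receptor gene Fzd5 at 4.32-fold, against 8.96 at its start. Of 21 immune cell genes only Spi1 had one, at 4.89-fold, and none of 21 muscle and fibroblast genes or 20 housekeeping genes did.

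Of 40 genes for proteins that act on messenger RNA, such as microRNA partners and binders of 3′ UTRs, 5 hosted a 3′ UTR peak, or 12.5% (4.19 to 26.8). Ago2, the slicing Argonaute of microRNA complexes, had 5.28-fold against 8.50 at its start. Elavl3, a neuronal binder of AU-rich RNA, had 5.51-fold against 6.11, and Zfp36l1, which promotes decay of such RNA, had 4.72-fold against 7.30. Igf2bp2 (3.92 against 9.64) and the splicing factor gene Rbfox2 (3.52 against 6.31) were lower in the UTR. In all 5 the start peak was the higher one. The share was not tested, and it was 1 of 25 lists and families looked at.

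Gene families taken by symbol ranged from 0 to 15.8% of members with a 3′ UTR peak, against 3.41% of all protein-coding genes. Solute carriers had 20 of 375 (5.33%, 3.29 to 8.12), transmembrane proteins 9 of 238 (3.78%) and zinc finger proteins 8 of 395 (2.03%, 0.878 to 3.95). The 20 include Slc9a3r1, which has the symbol of the family but does not encode a carrier. Rab GTPases, which direct membrane traffic, had 7 of 59 (11.9%, 4.91 to 22.9), namely Rab11b, Rab15, Rab1b, Rab37, Rab4b, Rab5c and Rab7b. Potassium channels had 8 of 93 (8.60%, 3.79 to 16.2), among them Kcnh2 and Kcnn4. Sox factors had 3 of 19 (15.8%, 3.38 to 39.6), which were Sox10, Sox11 and Sox21. Krüppel-like factors had 2 of 17 (11.8%, 1.46 to 36.4), forkhead factors 3 of 44 (6.82%, 1.43 to 18.7) and collagens 2 of 44 (4.55%, 0.555 to 15.5). Homeobox cluster genes had 1 of 39 (2.56%), ubiquitin-specific proteases 1 of 56 (1.79%) and protocadherins 0 of 69, which allows up to 4.35%. Olfactory receptors had 0 of 1108, which allows up to 0.271%, and only 4 of those genes had a peak within 1 kb of a TSS. Rab genes had such a start peak in 49 of 59 and potassium channels in 60 of 93, against 12073 of all 21027.

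**Figure D5:**
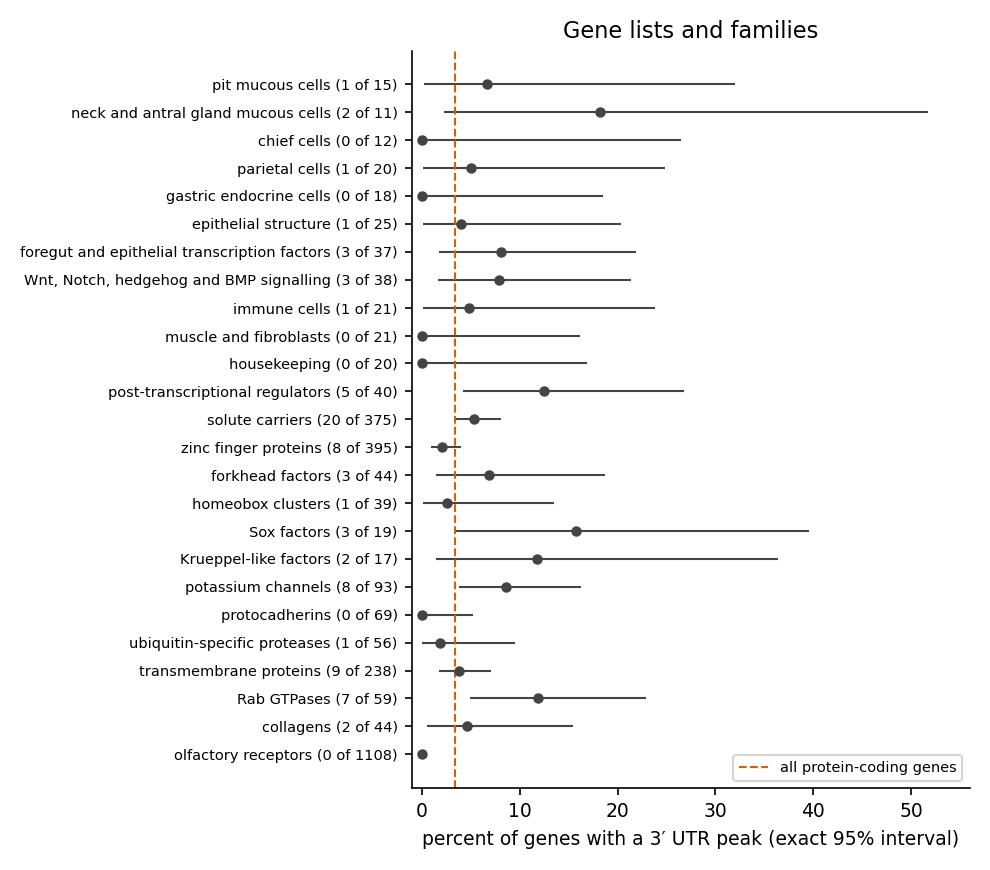
Percent of genes with a 3′ UTR peak (horizontal axis, exact 95% interval) for 25 gene lists and families, with the count of hosts and members beside each name. The dashed line is the 3.41% of all protein-coding genes, and the intervals of most lists include it.

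In 11 genes the UTR held 3 or more peaks. Nfic, a nuclear factor I gene, had the most, 4 peaks between 80860060 and 80863580 on chromosome 10, of 3.50, 4.32, 3.96 and 4.32-fold. Its relative Nfix had 3 within 87230547 to 87232461 on chromosome 8, of 5.42, 5.31 and 4.32-fold. The start peak of Nfix was 5.30-fold and its best other peak 8.70. Cbfa2t3, a corepressor gene of the ETO family, had 3 of 3.70 to 3.92-fold while its best other peak was 15.7. Over all 11 genes these peaks held from 16 to 31 tags.

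Casz1, a zinc-finger gene with 60 other peaks, had 3 UTR peaks at 2 annotated transcript ends. One of 5.31-fold lay in exon 16 of 16 of one transcript, and those of 5.51 and 4.29-fold lay in exon 21 of 21 of another. Its start peak was 7.24-fold and its best other peak 14.5. Kazn likewise had peaks at 2 ends, of 2.77 and 3.92-fold in exon 14 of 14 and 3.50-fold in exon 7 of 7. The remaining 5 genes were Fam102a (3.90 to 4.32-fold, start peak 10.9), H13 (3.37 to 6.47), the kinesin gene Kif21b (4.09 to 4.93), the sphingomyelinase gene Smpd3 (3.22 to 4.72) and the synaptotagmin gene Syt11 (3.50 to 4.52).

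Pileup and fold parted where the input was high. The tallest 3′ UTR peak, in Mid1 on chromosome X from 166427190 to 166427722, held 144 tags (121 to 170). Scaled to the input depth, as fold uses it, this pileup was 85.5 over an input of 35.0. Its fold of 2.40 was nevertheless the lowest of all 809. Pisd had 76 tags, scaled to 45.1 over an input of 14 (3.08-fold). Mroh2a had 49 tags, scaled to 29.1 over an input of 8.53 (3.16-fold). The phosphatase gene Ctdsp1 had 45 tags, scaled to 26.7 over an input of 3.70, and a higher fold of 5.89. The Slc25a10 peak described above, the fifth by pileup, had 41 tags, scaled to 24.35 over an input of 1.98. Tfeb, a lysosomal regulator gene, shared with Barx1 the next lowest fold, 2.54, over an input of 5. The tallest peaks were picked out after their values had been seen.

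In 21 host genes with a transcript of a single exon the peak lay in the exon that also holds the start; these were likewise picked after their values had been seen. Their median fold was 4.49, from 2.93 at the Wnt receptor gene Fzd8 to 6.71 at Ier2, and 6 stood at 5-fold or more. The host was credited in 17, and 16 lay within 2 kb of a TSS. Sox11 had 5.70-fold on chromosome 12 from 28023713 to 28023943, above its start peak of 4.32. Cebpa, a factor gene of myeloid and liver differentiation, had 5.31-fold on chromosome 7 from 35905441 to 35905688, below its start peak of 8.70. The AP-1 gene Jun had 3.52-fold, and the neural factor gene Olig1 had 3.92-fold.

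Only 3 of the 809 peaks lay in a UTR exon that is not the last of its transcript. Those were 2 in the immediate early gene Arc, of 4.69-fold in exon 1 of 3 and 3.22-fold in exon 2 of 3, and 1 in Ppfia4, of 3.07-fold in exon 28 of 29. The homeobox gene Nkx2-3, known from gut mesenchyme, was among the genes whose highest peak lay in the UTR, at 5.51-fold on chromosome 19 from 43689119 to 43689984 against 4.09 at its start. It was named after its values had been seen.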

How the data were processed

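Chromatin of stomach mucosa was sequenced in 2 GATA4 pull-down libraries and 1 input library. The submitters' processing notes name Bowtie2, MACS2, HOMER and mm9. Per the file headers, MACS 2.1.0.20140616 pooled both pull-downs, kept 1 tag per position (59610626 pull-down and 28116789 input tags of 74 bases before, with 35.0% and 18.1% removed), scaled the pull-downs to the input, extended tags to 161 bp and used a q-value limit of 0.05. Depths of the single pull-downs were not given in the sources used here.

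The deposited pileup is a coverage signal in scaled tags; divided by the factor of 0.594 it gave whole tags within 0.02 for all 50869 peaks. The deposited fold is a ratio by the authors' caller, and the −log10 q-value was deposited beside it. The deposited HOMER score is 10 times the −log10 q-value. Input level was recovered from pileup and fold, with tolerances of 0.5% for the floor and 0.005 for 2 tags.

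Hosts were matched by transcript accession in a table of RefSeq genes (assembly GRCm38.p6), used for names, gene type and gene order only (807 peaks; 2 from the deposited table). Medians have binomial order-statistic intervals, shares exact Clopper-Pearson intervals and tags exact Poisson intervals, all at 95% (Python 3.11.15, pandas 2.3.3, scipy 1.17.1). Their coverage was checked on simulated data. The simulated medians were of untied values, and no limit of a peak call was applied, so the check does not extend to either. Peaks are not replicates, so no test was run across them.

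The members and lists were chosen with earlier results of these data known. Genes named are the 25 highest by fold, all list genes with a 3′ UTR peak, hosts of 3 or more, the extremes of length, fold and distance, and peaks at 8-fold or more that are the strongest of their gene; other names serve as examples. Some genes that meet this rule are not reported here. Alternatives were a stricter q-value, 1 peak per gene, other windows and rankings, the detailed annotation, and leaving out peaks near a TSS or on random contigs. No sequence was read, since no mm9 genome was used here.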

Additional observations from a re-analysis of the deposited data

How the results depend on the processing

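Of 37 alternatives run on 8 results, 27 stayed within the counting interval, or within 1.5 times for the number of peaks. Most of these 27 could hardly move. The detailed annotation kept all 809 peaks, leaving out random contigs kept 808, and leaving out peaks within 1 kb of a TSS dropped only 7. The limit of −log10 q of 5 or more changed most: it left 102 of the 809 peaks, with a median of 5.31-fold, 90.2% at 5-fold or more, 6.86% in the top 10% by q-value and 2.94% within 1 kb of a TSS. With that limit 64.9% of the host genes had another peak within 1 kb of a TSS. The share was 50.6% for genes with later exon peaks and 49.8% for genes with end site peaks, limited after seeing the data. In 27.8% of the 3′ UTR host genes the strongest peak lay in the UTR. The limit keeps peaks with more tags over their input by its construction. A window of 2 kb put 8.41% near a TSS, and one of 5 kb raised host genes with another peak to 90.9%. Ranked by summit pileup, the UTR peak was the strongest in 8.36% of host genes. No paired analysis was possible because the pull-downs were pooled in 1 peak list, so no replicate could be compared or left out either. With a median of 20 tags a peak, single 3′ UTR peaks cannot be ranked closely.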
